A study of Mus musculus with 10 samples.

Results

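Arterial endothelial cells line the vessels that carry blood towards the capillary bed, and in the lung they form a small share of the endothelium beside capillary, venous and lymphatic cells. The 10 genes described here are markers of that arterial state: Gja5, Gja4, Sox17, Bmx, Hey2, Dkk2, Fbln2, Fbln5, Mgp and Ltbp4. They were chosen by symbol, and each matched 1 row of the deposited table of 55385 gene identifiers. RNA sequencing had been done on sorted lung endothelial cells of mice in 2 groups. The libraries labelled EC-TRAIL KO (n = 5, here called KO-labelled libraries) have the genotype Tnfsf10 L/L with Cdh5.Cre Tg/W. The control libraries (n = 5) are Tnfsf10 L/L with Cdh5.Cre W/W, so both groups carry the loxP-flanked alleles of Tnfsf10, the gene of the TNF-family death ligand TRAIL, and only the first carries the tamoxifen-inducible Cre under the endothelial Cdh5 promoter. Mice were 8 to 14 weeks old, and the labels describe tamoxifen at 1 mg per mouse per day for 5 or 10 days without saying which library had which course. The comparison asks whether arterial identity genes differ in lung endothelium after deletion of TRAIL in those cells, and because transgene and deletion go together, the design cannot tell them apart.

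In embryonic and adult vessels the arterial state is tied to Notch signalling. Vascular endothelial growth factor and blood flow raise Notch ligands and receptors, Sox17 acts with this pathway, and Hey2 is one of the transcriptional repressors that Notch induces. Differentiated arterial endothelium couples its cells through the gap junction proteins encoded by Gja4 and Gja5, and makes matrix proteins of the elastic vessel wall. Several of those matrix genes, Mgp, Fbln2, Fbln5 and Ltbp4 among them, are also made by fibroblasts and smooth muscle cells.

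Libraries held 29806083 to 34702571 expected counts in the KO-labelled group and 34435835 to 56897822 in controls, so the controls were mostly deeper. Tnfsf10 itself ran from 80.99 to 318 CPM (counts relative to the TMM-scaled library size) in the KO-labelled libraries and from 298.2 to 373.6 CPM in controls. Replicate 2 of the KO-labelled group, at 318 CPM, lay inside the control range, and the difference over all 10 libraries had a log2 fold change of -0.90 (edgeR adjusted p = 0.425). Values of the arterial genes are therefore also given without that library. Of the endothelial label, the 10 pan-endothelial markers were all present in every library, with a summed level of 12897 to 14724 CPM in the KO-labelled libraries and 12768 to 14862 CPM in controls. RNA of other cells was present too, and of the marker lists of other cells the alveolar epithelial one had the highest sum. The 10 alveolar epithelial markers summed to 6663 to 9768 CPM in the KO-labelled libraries and 8076 to 12103 CPM in controls. None of them passed the test between the groups. All 10 had a log2 fold change below 0, as had 52.6% of all tested genes, with a median of -0.16. The 10 leukocyte markers summed to 1073 to 1580 CPM in KO-labelled libraries and 1267 to 1921 CPM in controls. Most of that sum was Lyz2, a lysozyme gene of myeloid cells and of alveolar type II cells (1267 ± 180 CPM in KO-labelled libraries and 1404 ± 279 CPM in controls), while the pan-leukocyte gene Ptprc had 3.24 ± 0.912 CPM in KO-labelled libraries and 3.32 ± 1.19 CPM in controls (SD, n = 5 each, both genes chosen after their values were seen). The 12 fibroblast markers summed to 629 to 1138 CPM in the KO-labelled libraries and 826 to 1115 CPM in controls, and the 12 smooth muscle and pericyte markers to 314 to 497 CPM in KO-labelled libraries and 391.7 to 533 CPM in controls, and of these lists only Cd3e, a T cell gene, was at 0 counts in a library (control 5). The log2 fold change was also below 0 for 10 of 12 fibroblast, 8 of 12 smooth muscle and pericyte and 5 of 7 tested leukocyte markers. The part of alveolar epithelial and leukocyte RNA in the values of the arterial genes was not tested. In such bulk RNA, fewer arterial cells and less arterial RNA per cell cannot be told apart.

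All 10 arterial genes passed the filter on low counts, and none of them passed the test for a difference between the groups. The test was edgeR's quasi-likelihood test with Benjamini-Hochberg adjustment over 17997 tested genes, and 0 of 10 arterial genes had an adjusted p under 0.05, against 0.439% of all tested genes. That background itself was unsteady: 79 genes were called with all libraries, 2 when any 1 control or replicate 4 of the KO-labelled group was left out, 3 without replicate 3 of that group and 155 without its replicate 1. At an unadjusted p under 0.05 the arterial count was again 0, where 5.13% of all tested genes were called. DESeq2 and limma-voom called 0 as well after adjustment, and at an unadjusted p under 0.05 DESeq2 called 1 (Bmx) and limma-voom 0. In each of the 10 genes the KO-labelled libraries overlapped the controls, while 1.64% of all tested genes had groups that did not overlap. Of the 10 log2 fold changes, 5 were above 0 and 5 below (52.6% of all tested genes were below), with a median of -0.0083 against -0.0085 over all tested genes. The 95% interval of the fold change stayed within 1.5-fold in either direction for 9 of the 10 genes, the exception being Hey2, and within 2-fold for all 10. Over all tested genes, 64.9% had an interval within 1.5-fold and 87.6% within 2-fold.

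**Figure D1:**
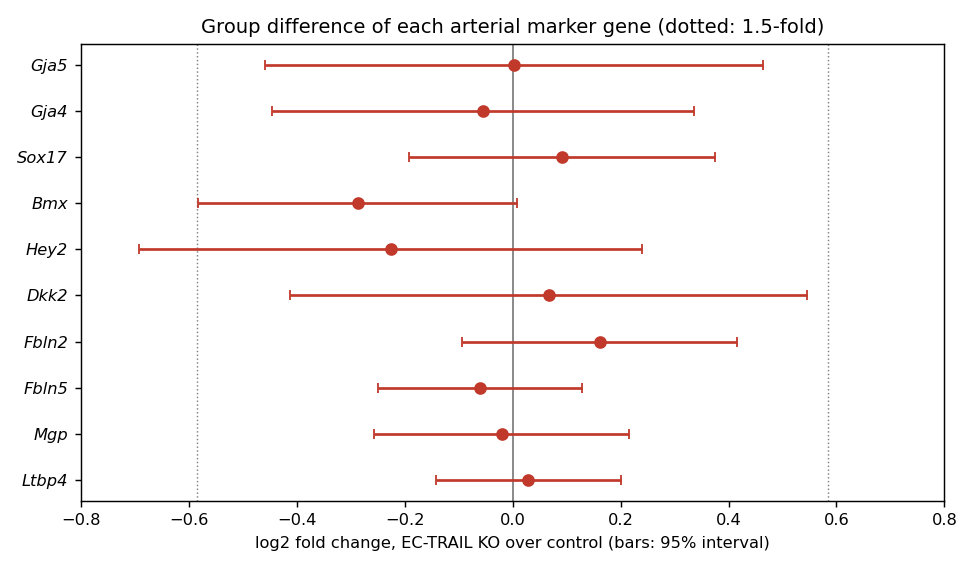
Log2 fold change of each arterial marker gene, KO-labelled libraries over controls (x axis), with the 95% interval of edgeR's quasi-likelihood fit. Each interval includes 0, and that of Hey2 alone passes the dotted 1.5-fold line, reaching -0.69.

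Both connexin genes had nearly equal group means but differed widely between libraries of one group. Gja4 (ENSMUSG00000050234, GRCm38 chromosome 4, 127311421 to 127314039, minus strand) encodes a gap junction protein that couples endothelial cells to each other and to smooth muscle. In replicates 1 to 5 of the KO-labelled group it had 149, 130.3, 84.6, 108 and 96.1 CPM, against 135, 109, 87.9, 158 and 99.3 CPM in controls 1 to 5. Control 4 was the highest library and replicate 3 of the KO-labelled group the lowest. Means were 114 ± 26.1 CPM in KO-labelled libraries and 118 ± 28.6 CPM in controls (SD, n = 5 each), and the log2 fold change was -0.06 (SE 0.18, 95% interval -0.45 to 0.34). Gja5 (ENSMUSG00000057123, GRCm38 chromosome 3, 96904693 to 97077416, plus strand) encodes the other main arterial connexin of mice. It had 34.6, 27.97, 36.6, 22.3 and 20.9 CPM in the KO-labelled libraries and 31.6, 37.2, 32.8, 17.2 and 23.3 CPM in controls. Replicates 4 and 5 were the 2 lowest libraries in each group. The log2 fold change was 0.0033 (SE 0.212, interval -0.46 to 0.46), around means of 28.5 ± 7.06 CPM in KO-labelled libraries and 28.4 ± 8.05 CPM in controls (SD, n = 5 each). The highest control had 2.17 times the Gja5 level of the lowest, so the range within one group was far wider than the difference between groups. The SD of log2 CPM within groups was larger for Gja5 than for 95% of the 500 tested genes nearest to it in mean CPM, and for Gja4 the share was 94.6%. Gja5 shares 654 bases of its annotated span with Gpr89 on the opposite strand, which had 27.7 CPM in KO-labelled libraries and 27.8 CPM in controls, and without the strand setting of the counting its reads and those of Gja5 there cannot be told apart.

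The proximal promoter of Gja4 is shown because it is one of the 3 arterial genes whose window holds the letters ACAAT, the core bound by SOX factors such as Sox17. It is the RefSeq window of 250 bases before to 50 after the gene's start at GRCm38.p6 chr4:127313990-127314289, minus strand, written 5′ to 3′ in the gene's direction, with the match at position -86 from the start in capitals.
Gja4: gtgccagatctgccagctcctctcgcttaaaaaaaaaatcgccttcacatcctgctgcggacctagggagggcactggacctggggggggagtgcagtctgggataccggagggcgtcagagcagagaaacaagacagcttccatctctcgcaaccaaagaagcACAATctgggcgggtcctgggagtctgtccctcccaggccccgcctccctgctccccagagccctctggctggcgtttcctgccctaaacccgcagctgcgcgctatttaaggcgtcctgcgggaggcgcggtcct
Of the 10 genes, 8 matched the RefSeq promoter table, in 11 windows. ACAAT, searched on both strands, was in windows of Gja4, Bmx and Fbln5, 3 of the 11 windows, and in 31.0% of all 32851 windows of the same length. A match describes letters and not binding.

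Among the transcription factor genes, Sox17 (ENSMUSG00000025902, GRCm38 chromosome 1, 4490931 to 4497354, minus strand), a SRY-box factor needed for arterial specification in the mouse, was the most abundant in CPM. It had 261, 272, 195, 174 and 182 CPM in the KO-labelled libraries and 238, 203, 193, 195 and 189.6 CPM in controls. Replicates 1 and 2 of the KO-labelled group lay above every control and replicates 4 and 5 below every control, so that group spread to both sides of the other. Means were 217 ± 46.0 CPM in KO-labelled libraries and 204 ± 19.8 CPM in controls (SD, n = 5 each), with a log2 fold change of 0.09 (SE 0.13, interval -0.19 to 0.37). Without replicate 2 of the KO-labelled group it was -0.0035, so the sign rested on that library. The transcript Gm37587, which overlaps 804 bases of Sox17 on the opposite strand, had 0.734 CPM in KO-labelled libraries and 0.773 CPM in controls. Hey2 (ENSMUSG00000019789, GRCm38 chromosome 10, 30832359 to 30842801, minus strand), the repressor downstream of Notch, was scarce. It had 5.57, 3.38, 3.28, 2.37 and 4.48 CPM in the KO-labelled libraries, against 5.48, 4.45, 4.59, 3.45 and 4.35 CPM in controls. Of the 5 KO-labelled libraries, 3 lay below every control and 1 above every control. The log2 fold change was -0.23 (SE 0.214, interval -0.69 to 0.24), and -0.19 without replicate 2 of that group. It rested strongly on single libraries, at -0.40 without replicate 1 of the KO-labelled group, -0.10 without its replicate 4 and -0.14 without control 1, and none of these passed.

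The Hey2 promoter window is shown because the letters TGGGAA, the core bound by the Notch partner RBPJ, occurred more than once in it. It lies at GRCm38.p6 chr10:30842734-30843033, minus strand, with matches in capitals at positions -207 (reverse strand, read as TTCCCA) and -3 from the start.
Hey2: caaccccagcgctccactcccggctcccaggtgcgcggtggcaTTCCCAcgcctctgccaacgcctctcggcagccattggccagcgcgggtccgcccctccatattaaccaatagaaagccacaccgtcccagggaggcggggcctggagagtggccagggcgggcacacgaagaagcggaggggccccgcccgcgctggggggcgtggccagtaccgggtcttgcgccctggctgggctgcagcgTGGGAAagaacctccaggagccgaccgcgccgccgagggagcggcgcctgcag
TGGGAA was found in windows of Hey2, Bmx and Fbln5, 3 of the 11 windows, and in 25.6% of all windows. The E-box CACGTG, a sequence that HEY proteins can bind, was in 0 of the 11 windows and in 7.15% of all windows, and TATAAA was in 1 (Dkk2, at position -32) and in 13.6% of all.

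Bmx (ENSMUSG00000031377, GRCm38 chromosome X, 164192842 to 164258193, minus strand), which encodes a Tec-family tyrosine kinase found in arterial endothelium and endocardium, came nearest to the threshold. It had 13.3, 10.2, 14.75, 12.6 and 10.0 CPM in the KO-labelled libraries and 15.1, 14.2, 17.7, 15.8 and 11.6 CPM in controls. All 5 KO-labelled libraries lay below the control mean, and each lay below the control of the same number. How many of all tested genes share these patterns was not counted. Replicates 2 and 5 lay below every control. Means were 12.2 ± 2.04 CPM in KO-labelled libraries and 14.9 ± 2.24 CPM in controls (SD, n = 5 each), and the log2 fold change of -0.29 (SE 0.135, interval -0.58 to 0.0076) did not pass (unadjusted p = 0.0553, edgeR adjusted p = 0.986). For this gene alone, permuting the libraries exactly gave a two-sided p of 0.0952. Neither the fit nor this permutation used the replicate number, and the labels do not say what a number shares. With the replicate number as a block, the unadjusted edgeR p of Bmx was 0.00365 and the adjusted p 0.198. In that fit 1581 of 17997 tested genes had an unadjusted p under 0.05, against 923 without the block. By p without the block, Bmx ranked 1009 of 17997 genes. Without replicate 2 of the KO-labelled group the log2 fold change was -0.23. The Bmx promoter window, shown as the one with most matches among the arterial genes, lies at GRCm38.p6 chrX:164258144-164258443, minus strand. Capitals mark TGGGAA at -178 and ACAAT at -52 (reverse strand, read as ATTGT), -32 and 43.
Bmx: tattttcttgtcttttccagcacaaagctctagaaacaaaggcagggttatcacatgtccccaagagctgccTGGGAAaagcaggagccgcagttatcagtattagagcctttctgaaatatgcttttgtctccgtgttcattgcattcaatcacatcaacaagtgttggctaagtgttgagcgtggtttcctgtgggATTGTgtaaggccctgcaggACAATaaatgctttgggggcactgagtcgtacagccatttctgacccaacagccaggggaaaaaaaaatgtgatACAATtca

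**Figure D2:**
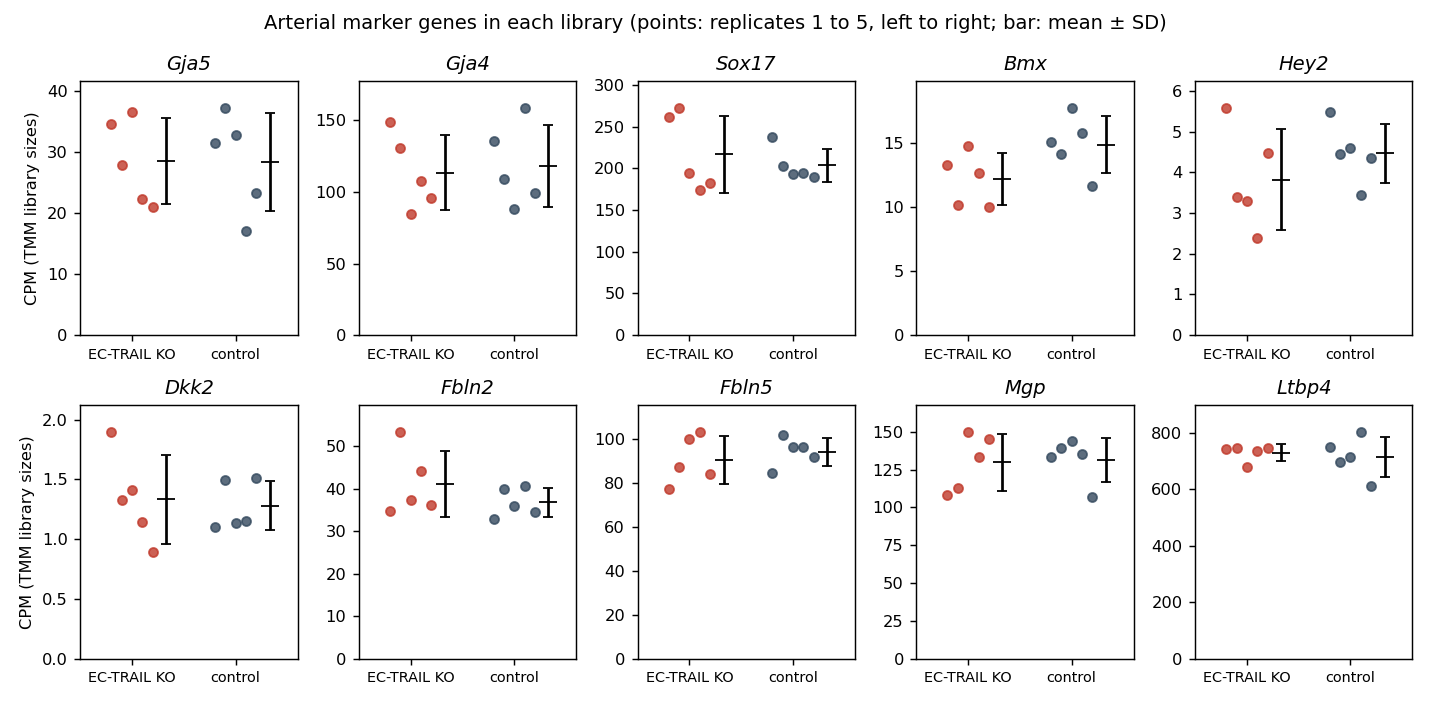
CPM of each arterial marker gene (y axis, from 0) in KO-labelled libraries (left, red) and controls (right, dark), replicates 1 to 5 from left to right in each group, with mean ± SD. The groups overlap in all 10 genes. Gja5 and Gja4 scatter widely in both groups and Ltbp4 little.

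The secreted matrix genes varied less between libraries than the connexins, with an SD of log2 CPM within groups of 0.11 (Ltbp4) to 0.20 (Fbln2), against 0.41 for Gja5 and 0.34 for Gja4. Dkk2 stood between them at 0.31. Beside the 500 tested genes nearest in mean CPM the order was another. The SD of Dkk2 was larger than that of 28.8% of them. For the matrix genes the share was 24.4% (Ltbp4), 57.8% (Fbln5), 75.2% (Fbln2) and 77.2% (Mgp). Dkk2 (ENSMUSG00000028031, GRCm38 chromosome 3, 132085292 to 132180304, plus strand) encodes a Dickkopf protein that modulates Wnt signalling through LRP co-receptors and was the least abundant of the 10 genes, with 27 to 88 counts per library. It had 1.90, 1.33, 1.41, 1.14 and 0.896 CPM in the KO-labelled libraries and 1.10, 1.495, 1.13, 1.15 and 1.51 CPM in controls. The highest and the lowest of the 10 libraries, replicates 1 and 5, were both in the KO-labelled group, and the log2 fold change was 0.07 (SE 0.22, interval -0.41 to 0.55). The interval allows a level of up to 1.46 times that of controls.

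Fbln2 (ENSMUSG00000064080, GRCm38 chromosome 6, 91212455 to 91272540, plus strand), a fibulin of basement membranes and elastic fibres, had the largest positive log2 fold change of the 10 genes. It had 34.7, 53.3, 37.3, 44.1 and 36.1 CPM in the KO-labelled libraries and 33.0, 39.8, 36.0, 40.5 and 34.4 CPM in controls. Replicates 2 and 4 of the KO-labelled group were above every control and the other 3 lay among them. Means were 41.1 ± 7.72 CPM in KO-labelled libraries and 36.7 ± 3.33 CPM in controls (SD, n = 5 each), and the log2 fold change was 0.16 (SE 0.117, interval -0.09 to 0.42, edgeR adjusted p = 0.997). Without replicate 2, the library whose Tnfsf10 was inside the control range, it was 0.05. Fbln5 (ENSMUSG00000021186, GRCm38 chromosome 12, 101746565 to 101819055, minus strand), the fibulin that organises elastic fibres, had 77.4, 87.3, 99.9, 103 and 84.2 CPM in the KO-labelled libraries, against 84.6, 102, 96.5, 96.5 and 91.9 CPM in controls. Its groups overlapped, with a log2 fold change of -0.06 (SE 0.0867, interval -0.25 to 0.13).

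Mgp (ENSMUSG00000030218, GRCm38 chromosome 6, 136872435 to 136875823, minus strand) encodes the matrix Gla protein, which inhibits calcification of vessel walls and binds BMP ligands. It had 108, 113, 149.8, 133 and 145 CPM in the KO-labelled libraries and 133, 139, 144, 135 and 107 CPM in controls. The lowest library of each group was at nearly the same level, and the log2 fold change was -0.020 (SE 0.109, interval -0.26 to 0.22). Ltbp4 (ENSMUSG00000040488, GRCm38 chromosome 7, 27305136 to 27337692, minus strand), which encodes a latent TGF-beta binding protein of elastic fibres, was the most abundant in CPM. It had 743, 745, 678, 734 and 747 CPM in the KO-labelled libraries and 749, 696, 713, 802 and 612 CPM in controls. Control libraries held both the highest and the lowest value, and the log2 fold change was 0.03 (SE 0.0784, interval -0.14 to 0.20). The interval of the Ltbp4 fold change, 0.907 to 1.15, was the narrowest of the 10. Without replicate 2 of the KO-labelled group, Ltbp4 was at 0.021, Mgp at 0.03, Fbln5 at -0.05, Dkk2 at 0.07, Gja4 at -0.11 and Gja5 at 0.0099 on the log2 scale, each a difference between groups, and Mgp alone among these 6 changed sign.

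Levels of the 10 genes can be compared with each other only per length. Divided by the union of annotated exons, Ltbp4 and Mgp led with 111.7 ± 7.93 and 110.1 ± 13.4 CPM per kilobase (mean and SD over all 10 libraries), and Ltbp4 exceeded Mgp in 6 of 10 libraries, so their order was not resolved. Gja4 followed with 68.7 ± 15.4, Sox17 with 44.1 ± 7.15 and Fbln5 with 13.4 ± 1.25 CPM per kilobase, each above the next in all 10 libraries. Fbln2, Gja5 and Bmx lay close together at 6.11 ± 0.951, 4.95 ± 1.24 and 4.37 ± 0.798 CPM per kilobase. Fbln2 exceeded Gja5 in 5 of 10 libraries and Gja5 exceeded Bmx in 7 of 10. Hey2 at 0.902 ± 0.220 and Dkk2 at 0.353 ± 0.0767 CPM per kilobase were the lowest 2 genes in every library. With the longest transcript as length, Mgp stood above Ltbp4 in all 10 libraries (182.8 and 134 CPM per kilobase), and Gja4 exceeded Sox17 in only 7 of 10. No source used here gives the transcript lengths behind the authors' counting.

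**Figure D3:**
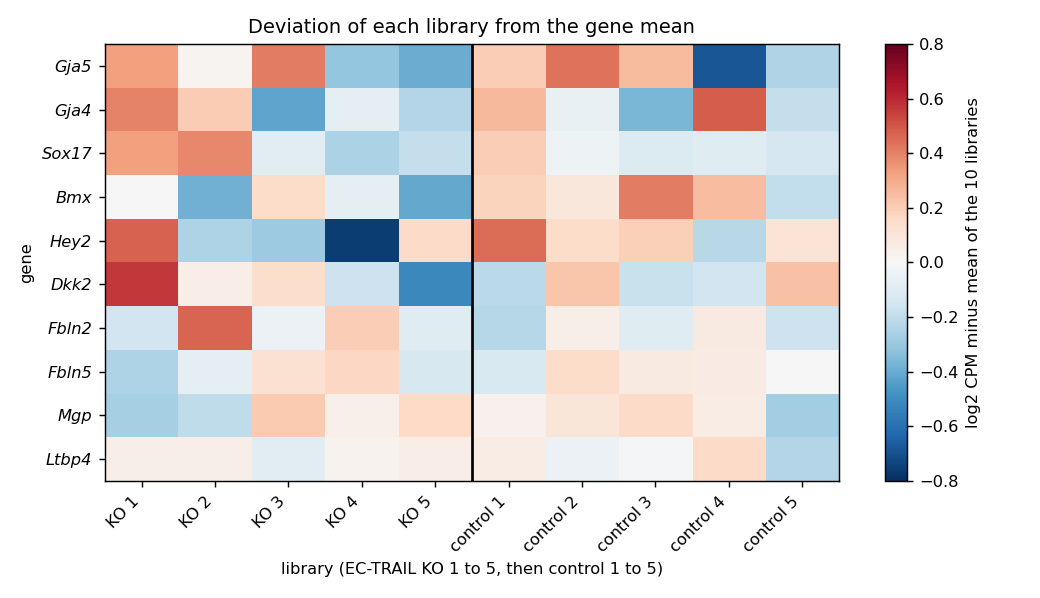
Log2 CPM of each arterial marker gene minus its mean over the 10 libraries (colour), with KO-labelled libraries to the left of the line and controls to the right. Rows differ in which libraries are high: Gja5 is lowest in control 4, where Gja4 is highest, and Hey2 is lowest in replicate 4 of the KO-labelled group.

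The 10 genes did not move as one set across libraries. Of the 45 pairs, 25 had a positive and 20 a negative Pearson correlation of log2 CPM over the 10 libraries, with a median of 0.06. No pair passed Benjamini-Hochberg adjustment over the 45 relations (two-sided permutation test with 100000 resamples), and 4 had an unadjusted permutation p under 0.05. Hey2 and Fbln2 had the smallest p (r = -0.68, permutation p = 0.0292, adjusted p = 0.457; Spearman's rho = -0.75, permutation p = 0.0172, adjusted p = 0.671), with r = -0.81 without the 2 libraries of most extreme Hey2 level. It was -0.59 within KO-labelled libraries and -0.78 within controls. Hey2 and Fbln5 had r = -0.67 (permutation p = 0.0347, adjusted p = 0.457) and rho = -0.66 (permutation p = 0.0440, adjusted p = 0.671), with r = -0.93 within KO-labelled libraries, -0.59 within controls and -0.47 without the 2 libraries most extreme in Hey2. Sox17 and Fbln5 had r = -0.66 (permutation p = 0.0385, adjusted p = 0.457) but rho = -0.38 (permutation p = 0.280, adjusted p = 0.840), with r = -0.64 within KO-labelled libraries, -0.69 within controls and -0.41 without replicates 1 and 2 of the KO-labelled group. Gja4 and Ltbp4 had r = 0.64 (permutation p = 0.0406, adjusted p = 0.457) and rho = 0.65 (permutation p = 0.05, adjusted p = 0.671), with r = 0.67 within KO-labelled libraries, 0.73 within controls and 0.45 without the 2 libraries most extreme in Gja4.

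Each arterial gene was also set against the mean log2 CPM of the fibroblast markers and of the smooth muscle and pericyte markers, in 20 relations. By Pearson's r, 0 of them passed Benjamini-Hochberg adjustment and 3 had an unadjusted permutation p under 0.05. The permutations, here and for the pairs above, took all 10 libraries as independent. Yet 8 of 10 libraries correlated best with the library of their own number in the other group. Mgp had the strongest relation. Its Pearson correlation with the fibroblast mean was 0.79 (permutation p = 0.00431, adjusted p = 0.0862) and Spearman's rho was 0.87 (permutation p = 0.00217, adjusted p = 0.0434), so that the rank correlation passed the adjustment and Pearson's did not. Without the 2 libraries farthest from the median fibroblast level, replicates 1 and 2 of the KO-labelled group, r was 0.75. It was 0.88 within the KO-labelled libraries and 0.76 within controls. Sox17 went the other way with r = -0.71 (permutation p = 0.0186, adjusted p = 0.146) and rho = -0.28 (permutation p = 0.429, adjusted p = 0.715), but r was 0.02 without the same 2 libraries, so this relation rested on them. Fbln5 and the fibroblast mean had r = 0.46 (permutation p = 0.186, adjusted p = 0.338) and rho = 0.44 (permutation p = 0.207, adjusted p = 0.715), with r = 0.14 without those libraries. Fbln2 had r = -0.56 (permutation p = 0.0943, adjusted p = 0.328) and rho = 0.0061, with r = 0.01 without those libraries. Ltbp4 had r = -0.17 (permutation p = 0.610, adjusted p = 0.762) and rho = -0.19, with r = 0.06 without them. Over all 10 libraries the matrix genes differed in the sign of r, but without those 2 libraries r was above 0 for each of them. With the smooth muscle and pericyte mean, Gja5 had r = -0.70 (permutation p = 0.0219, adjusted p = 0.146) and rho = -0.43. Without the libraries farthest from its median, replicate 5 of the KO-labelled group and control 4, r was -0.09. Sox17 had r = -0.61 with that mean and rho = -0.67 (permutation p = 0.0400, adjusted p = 0.400), with r = -0.80 without the same libraries. The highest positive r with that mean was 0.49, for Mgp. Between the groups, 0 of 12 fibroblast markers passed the test (edgeR adjusted p of at least 0.997, median log2 fold change -0.14). When both marker means were added to the fit as covariates, the group difference was 0.07 for Mgp, -0.03 for Sox17, 0.08 for Fbln2 and -0.02 for Fbln5 on the log2 scale. It was -0.19 for Gja4, against -0.06 without the covariates, and -0.23 for Bmx. For Hey2 it was -0.22, for Gja5 0.04, for Ltbp4 0.02 and for Dkk2 -0.0034. With the covariates, none of the 10 genes passed.

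**Figure D4:**
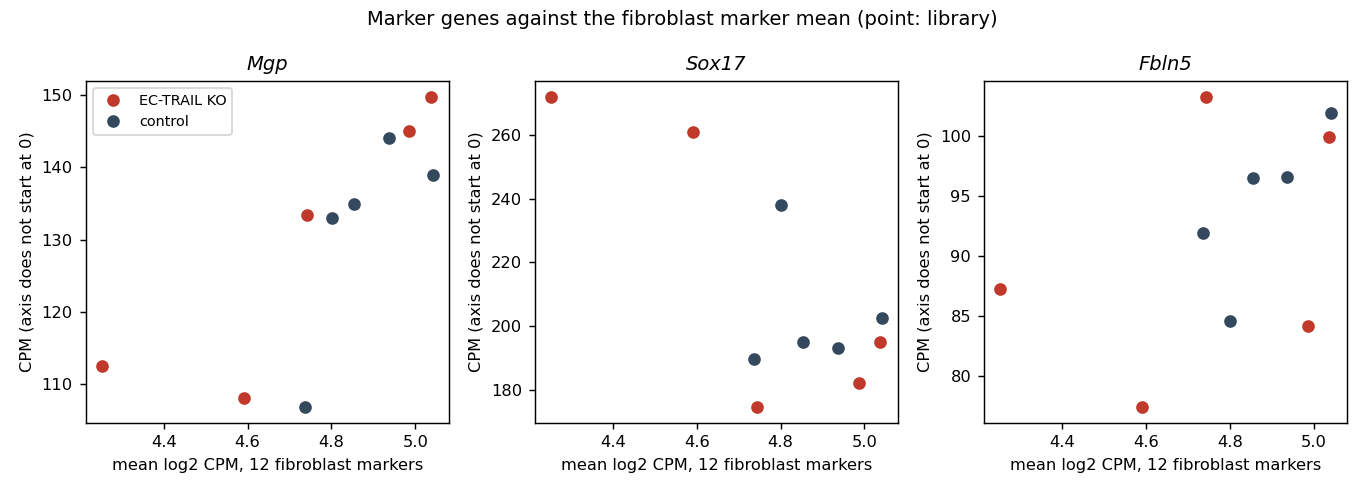
CPM of Mgp, Sox17 and Fbln5 (y axes, not from 0) against the mean log2 CPM of 12 fibroblast markers (x axis) in KO-labelled libraries (red) and controls (dark). Mgp increases with the fibroblast mean in both groups (r = 0.79 over 10 libraries), and Sox17 is highest in the 2 libraries with the lowest fibroblast mean.

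By likeness of profile, measured as Pearson's r of log2 CPM over the 10 libraries among 14491 other protein-coding genes, the nearest genes were Cpe and Selp for Gja4 (0.94 for both), Rap2a and Ap1ar for Gja5 (both 0.95), and Atp8b1 and Pdgfb for Sox17 (0.97 and 0.96). Hipk2 and Ncald were nearest to Bmx (0.96 and 0.94), Cracr2b and B3gat3 to Hey2 (0.95 for both), and Akirin2 and Phf21b to Dkk2 (0.86 and 0.85). For the matrix genes these were Ppic and Psmd8 for Fbln2 (0.95 and 0.94), Ankrd42 and Gjb2 for Fbln5 (0.93 for both), Mfap5 and Zfr2 for Mgp (0.95 and 0.94), and Bag6 and Psen2 for Ltbp4 (0.95 and 0.93). These are the highest values of a search over many genes with 10 libraries and describe these libraries only. Selp, Gjb2 and Mfap5 also belong to the lists of venous markers, other connexins and elastic fibre genes given below, in that order.

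Other genes of the arterial programme did not pass the test either. Of 20 listed Notch and arterial genes, all tested, 0 rose and 0 fell, with a median log2 fold change of 0.02. At an unadjusted edgeR p under 0.05, 2 were higher and 1 lower in KO-labelled libraries, against 5.13% of all tested genes called. Nrarp, a feedback inhibitor induced by Notch, had 69.0, 84.1, 88.3, 104 and 69.1 CPM in the KO-labelled libraries and 65.0, 59.8, 74.8, 65.5 and 61.8 CPM in controls. Replicates 2 to 4 of the KO-labelled group lay above every control, and the log2 fold change was 0.34 (SE 0.112, edgeR adjusted p = 0.523). Rbpj, the DNA-binding partner of Notch, was at -0.13 on the log2 scale (SE 0.0578, edgeR adjusted p = 0.911), the lymphangiogenic ligand gene Vegfc 0.20 (SE 0.0932, edgeR adjusted p = 0.974) and the Notch ligand gene Dll1 0.18 (SE 0.11, edgeR adjusted p = 0.997).

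Of 16 elastic fibre genes 0 passed, with a median of 0.02. At an unadjusted edgeR p under 0.05, 1 was higher (Eln) and 0 were lower. Eln, which encodes elastin, had 298.7, 323, 326, 365 and 416 CPM in the KO-labelled libraries, against 267, 278, 253, 340.3 and 278 CPM in controls. Replicates 4 and 5 of the KO-labelled group lay above every control, and the log2 fold change was 0.29 (SE 0.104, edgeR adjusted p = 0.695). Tgfb1, the ligand that latent binding proteins anchor, was at 0.18 and Emilin1, a glycoprotein of elastic fibres, at 0.15. Ltbp1, a relative of Ltbp4, was at 0.13 on the same scale. None of these passed (edgeR adjusted p = 0.997 for each).

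Relatives and partners of the arterial genes gave 0 calls in 3 further lists. Among Sox, Foxc and ETS factors, listed together with Mef2c, 6 of 7 genes were tested. Foxc2, a forkhead factor of arterial and lymphatic vessels, had all 5 KO-labelled libraries above all controls, at 2.32 ± 0.165 CPM in KO-labelled libraries and 1.84 ± 0.157 CPM in controls (SD, n = 5 each). This held for 1.38% of all tested genes, and Foxc2 did not pass (log2 fold change 0.34, SE 0.142, edgeR adjusted p = 0.882). Among other connexins and pannexin 5 of 6 were tested, with a median of 0.19 and with Panx1 at 0.36 and Gjc1 at 0.19. Among Wnt antagonists, receptors and targets 7 of 9 were tested, with a median of 0.01 and with Dkk3 at -0.26 and Lef1 at -0.27. For comparison, the 8 venous markers had a median of 0.04 and the 10 pan-endothelial markers one of 0.07, and none of them passed. Tek, the angiopoietin receptor, was at -0.22 and Robo4 at 0.17. Their unadjusted edgeR p was 0.0210 and 0.0322, and the adjusted p 0.764 and 0.868. The 6 mesothelial markers had a median of 0.48 with 0 calls, Upk3b at 0.61 and Lrrn4 at 0.58. Of the 6, 5 were above 0, against 47.4% of all tested genes. At an unadjusted edgeR p under 0.05, 2 were higher and 0 lower in KO-labelled libraries, against 5.13% of all tested genes called. The 6 markers summed to 51.2 to 100.1 CPM in the KO-labelled libraries and 61.0 to 84.3 CPM in controls. Whether mesothelial RNA takes part in the values of Mgp or Fbln2 was not tested.

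**Figure D5:**
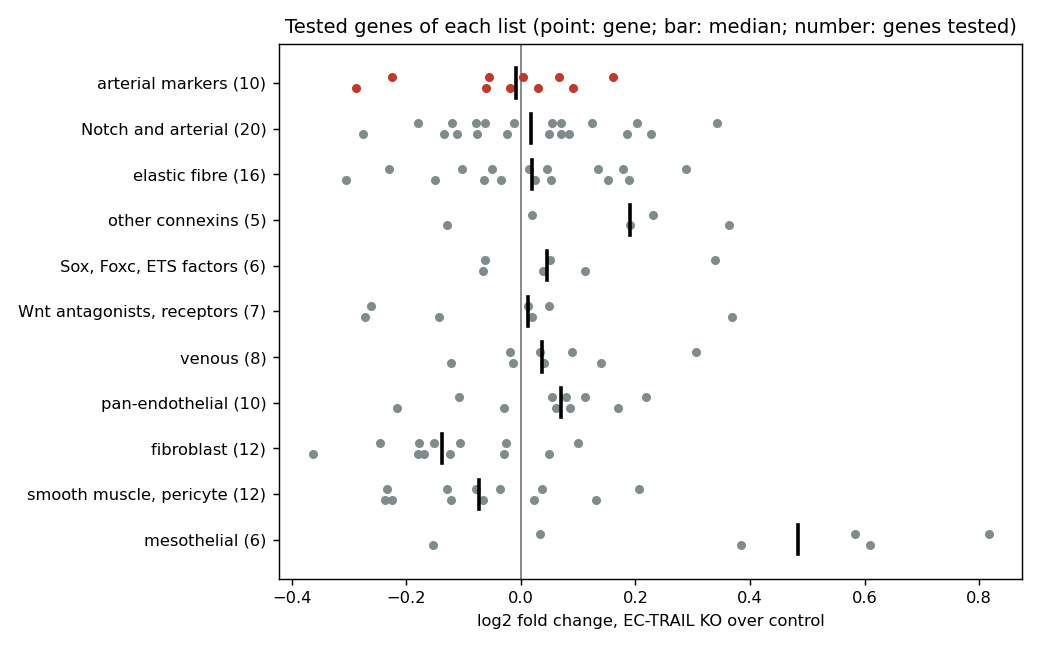
Log2 fold change, KO-labelled libraries over controls (x axis), of each tested gene (points) in the arterial marker list and the related lists, with the median of each list as a bar and the number tested in brackets. The arterial median of -0.0083 is beside 0, and no gene shown passed the test.

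Spread between libraries was larger in the KO-labelled group for 7 of the 10 arterial genes, where 57.5% of all tested genes had the larger coefficient of variation in that group. The median coefficient of variation of the arterial genes was 20.0% in KO-labelled libraries and 13.0% in controls, and over all tested genes it was 15.8% in KO-labelled libraries and 13.9% in controls. Hey2 had 32.3% in KO-labelled libraries and 16.2% in controls, and Sox17 had 21.2% in KO-labelled libraries and 9.75% in controls. Gja5, Gja4 and Ltbp4 were the 3 genes with the larger variation in controls, and for Ltbp4 the values were 4.00% in KO-labelled libraries and 9.82% in controls. No test was made of these differences. The controls were mostly sequenced more deeply, and whether depth takes part in the differences was not tested.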

How the data were processed

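Poly-adenylated RNA of sorted lung endothelial cells was isolated with TRIzol and made into stranded libraries, per the labels' protocols. STAR 2.7.1a, RSEM 1.2.28 and build GRCm38 are named per the submitters' processing notes. The deposited table holds unscaled expected counts per gene. Neither annotation release nor strand handling is given in the sources used here. Identifiers were matched without version to GENCODE M21 (55144 matched, 241 did not).

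Expected counts were rounded and fitted with edgeR 4.0.16 in R 4.3.3 (filterByExpr at a minimum count of 10, TMM, estimateDisp, quasi-likelihood F-test, group as the only term), which kept 17997 genes. The standard error is the size of the log2 fold change divided by the square root of F. The code was tested on simulated data. CPM used TMM library sizes, and log2 CPM a prior count of 2. DESeq2 1.42.0 and limma 3.58.1 (voom) were alternatives. The labels name neither the mouse behind each library nor a batch, so p-values measure the spread between libraries. The arterial genes and all lists were chosen with earlier results of these data known. Named genes are the arterial genes, up to 4 genes of each list with the smallest p, the 2 genes most like each arterial gene, and Tnfsf10. Series text names 4 transgenic animals, the labels 5 libraries, and all 5 were used.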

Additional observations from a re-analysis of the deposited data

Results flagged for a closer look

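Among 22 sets of 5 libraries (the 10 arterial genes and Tnfsf10 in each group), 2 had a library far from the others by the gap to its neighbour relative to the range (above 0.71), where chance gives about 1 in 20. Ltbp4 was lowest at 678 CPM in replicate 3 of the KO-labelled group, the other 4 lying between 734 and 747 CPM. Sox17 was highest at 238 CPM in control replicate 1, the other 4 controls lying between 189.6 and 203 CPM. Without replicate 3 of the KO-labelled group the log2 fold change of Ltbp4 was 0.05, and without control replicate 1 that of Sox17 was 0.15, neither passing.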

How the results depend on the processing

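No arterial gene passed in any of 18 alternatives, and 163 of 180 alternative fold changes kept their direction. The lowest adjusted p was 0.198, for Bmx with the replicate number as a block (log2 fold change -0.29, SE 0.0745, unadjusted p = 0.00365, against 0.0553 without the block). Bmx alone had an unadjusted edgeR p under 0.05 with the block. The block also gave a smaller SE for the other arterial genes except Dkk2. The SE went from 0.212 to 0.106 for Gja5, 0.180 to 0.105 for Gja4 and 0.214 to 0.140 for Hey2. It went from 0.117 to 0.069 for Fbln2 and from 0.220 to 0.240 for Dkk2. Same-numbered libraries of the groups had correlated deviations of 0.23, 0.07, 0.21, 0.43 and 0.11 for numbers 1 to 5, and 8 of 10 libraries correlated best with the library of their own number. The labels do not say what a number shares and 1 correlation was under the 0.1 asked of every pair, so the main comparison has no block, which does not show that the libraries were unpaired. With the replicate block 149 genes were called over all genes, against 79 in the comparison without it. Library size only and limma-voom called 2, the marker covariates 1, no low-count filter 143, DESeq2 213, and leaving out 1 library 2 to 155. Signs turned for Gja5 without the filter (-0.012) and, with the covariates, for Sox17 (-0.033), Dkk2 (-0.0034) and Mgp (0.071). Leaving out 1 library gave -0.13 to 0.12 for Gja5, -0.17 to 0.074 for Gja4, -0.094 to 0.18 for Dkk2, -0.086 to 0.039 for Mgp, -0.022 to 0.074 for Ltbp4, -0.0035 to 0.16 for Sox17, -0.40 to -0.095 for Hey2, -0.37 to -0.22 for Bmx, 0.050 to 0.22 for Fbln2 and -0.11 to -0.0096 for Fbln5. The cause of these changes was not tested. Fbln2 against the smooth muscle and pericyte mean turned sign with library size only (r = 0.050, an alternative chosen after seeing the data; r = -0.013 with TMM). Depth limits Dkk2 most, at 27 to 88 counts.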
